A study of Mus musculus with 2 samples.

Results

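The contigs described here are stretches of transcribed RNA that lay wholly inside introns whose splicing was well covered by reads in adult mouse thymus. A contig is a run of the genome covered by aligned reads, and a junction span is the stretch between the 2 splice sites joined in spliced reads. Of 777779 contigs in the pooled list, 56359 met the rule: from 200 to under 5000 bases long, inside a same-strand junction span of at least 100 reads, at least 100 bases from every junction end of at least 10 reads, and at a level at or above 0.167, the median over all contigs. The authors' level and the junction reads therefore chose these contigs: they were selected on measured values, and their levels are given as a description with no test. The level is the summed read coverage divided by the contig's length and by a constant of about 23.3, and so is a scaled mean depth.

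The RNA came from thymus of C57BL/6J mice aged 8 weeks, littermates of both sexes pooled, with 1 donor entry for both biosamples. From it came 2 stranded paired-end libraries of 76-base reads, made from poly-A RNA of over 200 nucleotides after removal of ribosomal RNA. There was 1 group and no treatment, so the data hold no contrast between conditions. The contig and junction lists pool both libraries and give no value per library used here, while the gene and transcript tables give 1 value per library. With n = 2 each SD rests on 1 difference, and since the animals were pooled littermates it may be technical in part.

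During splicing an intron is cut from the primary transcript as a lariat, which is then opened and degraded, while poly-A selection keeps mostly finished messages. Introns also carry other RNAs, among them microRNA hairpins and small nucleolar RNAs (snoRNAs), which guide the modification of ribosomal RNA. Most cells of the thymus are developing T cells, which rearrange their receptor genes and are selected under transcription factors such as Ikaros (Ikzf1), Tcf1 (Tcf7), Lef1, Bcl11b, Satb1 and Tox.

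Contigs and introns are printed on the mm9 build of the lists, counted from 1. Host genes were named by length and not by position. An intron took the name of the annotated intron on the same chromosome and strand (GENCODE M21, GRCm38) with the same length, the same neighbouring exon length and the same next intron length, which assumes that these lengths are equal in both builds. Of the 12851 introns that held such contigs, 12272 (95.5%) matched 1 annotated intron, and 12158 carried 1 gene name. With 1 base added to each intron's length 2 introns matched, and 0 neighbouring matches were out of order along a chromosome. In all, 52589 of the 56359 contigs lay in a named intron, in 5130 genes. No position was carried between builds, so what the annotation lists inside an intron is given for the intron as a whole, and whether a contig covers it was not determined.

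The sequences of the contigs themselves are not printed. The mature microRNAs listed in their introns are shown instead for 5 hosts, chosen after the counts were seen: miR-128 and miR-30 for their shared seeds (a seed is the stretch that pairs with target messages), with the well-known miR-342 and let-7g beside them. They were matched by name, come from RefSeq (GRCm38.p6), and are written 5′ to 3′ with the seed (bases 2 to 8) in capitals.
mmu-miR-128-2-5p, in an Arpp21 intron: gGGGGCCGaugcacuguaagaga
mmu-miR-128-1-5p, in an R3hdm1 intron: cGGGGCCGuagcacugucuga
mmu-miR-128-3p, in the same introns of Arpp21 and R3hdm1: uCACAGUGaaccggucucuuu
mmu-miR-30c-5p, in an Nfyc intron: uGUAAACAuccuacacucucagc
mmu-miR-30e-5p, in the same Nfyc intron: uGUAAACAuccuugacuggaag
mmu-miR-342-3p, in an Evl intron: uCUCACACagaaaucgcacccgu
mmu-let-7g-5p, in a Wdr82 intron: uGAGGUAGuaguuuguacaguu

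The miR-128 copies shared both seeds, and miR-30c and miR-30e shared GUAAACA. The 1 other seed shared in contig-holding introns, CUGUUCU, was that of mmu-miR-6932-3p in Helz and mmu-miR-7039-3p in Smurf1, which are not shown. The intron of Arpp21, a gene of immature thymocytes and neurons whose product binds RNA, was 51873 bases long, had 7165 junction reads and held 10 of the contigs, with a highest level of 13.0. The R3hdm1 intron, 14107 bases long, held 3, with a highest level of 0.387. These introns carry the same mature microRNA, and the highest levels of their contigs lay far apart. The Evl intron (20189 bases) held 14 contigs with a highest level of 1.38, the Nfyc intron (4772 bases) held 3 with a highest level of 0.476, and the Wdr82 intron (3855 bases) held 1 at a level of 1.10.

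The contigs were short and thinly covered, and most lay far under their exons. Their median length was 591 bases (5th to 95th percentile 275 to 1976), and together they covered 44.2 Mb. Their median level was 0.324 (5th to 95th percentile 0.178 to 1.13), and the median contig held the coverage of 60.3 whole reads. A level of 1 was reached by 3766 contigs (6.68%), a level of 5 by 69, and the highest stood at 842. They lay on both strands, 29262 on plus and 27097 on minus.

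The level minimum fell in a dense part of the distribution. At exactly 0.167 stood 279 contigs. Among the first 3 of them by position, 2 lay in 1 intron of Tram2, of 409 and 331 bases, and 1 in an intron of Smap1, of 430 bases. Just outside, at 0.166, stood 272 contigs that met every other part of the rule, and the first 3 by position were 391, 275 and 235 bases long. Under the minimum in all lay 28687 such contigs, with a median length of 323 bases.

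The median contig stood at 6.64% of the mean level of the exon contigs at the 2 ends of its intron (interquartile range 3.51 to 13.0%), over 56122 contigs with both exons in the list. For 37038 of them (66.0%) the level was under 10% of the exons. Another 1241 stood above 50%, and 207 stood above 100%.

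**Figure D1:**
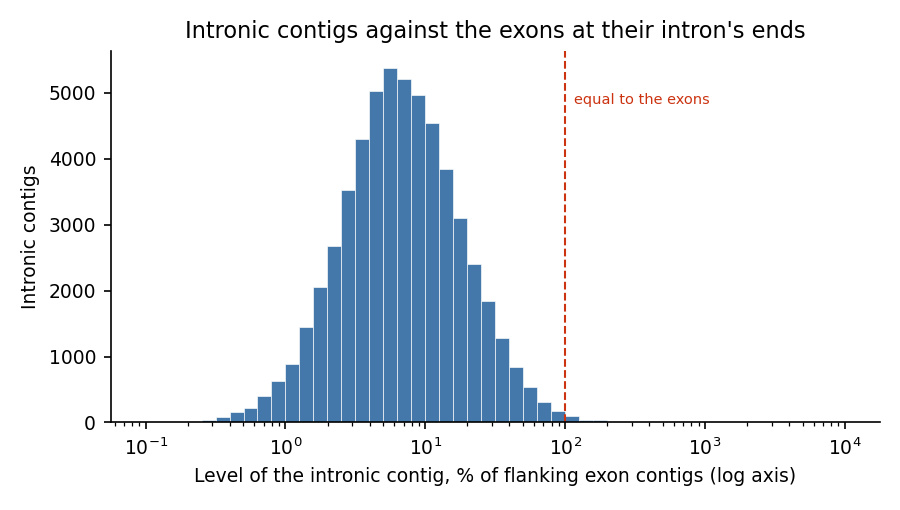
Level of each intronic contig as a percentage of the mean level of the exon contigs at the 2 ends of its intron (log axis), against the number of contigs per bin. The peak lies near the median of 6.64%, and 207 of 56122 contigs lie right of the dashed line at 100%.

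Few had a contig on the opposite strand. An antisense contig overlapped 3177 of them, 5.64% (exact 95% binomial interval 5.45 to 5.83%, for counting error only). The other contigs of 200 to under 5000 bases had such an overlap in 12.1% of cases, and those outside all well-read introns in 12.9%. In contigs that missed only the level minimum it was 3.22%. The rule did not use the antisense overlap itself, but its distance limit counted junction ends of both strands. Contigs of 1 intron also share a transcript, so the shares are given without a test. The authors' reproducibility value, where 0 is the lowest, was 0 for 38548 of the contigs (68.4%) and at most 0.07, while it reached 0.51 in the contigs under the level minimum.

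Long introns usually held such contigs and short ones rarely did. Of 55407 well-read spans, 37451 were at least 400 bases long and so had room for a contig under the rule, and 12851 of these held at least 1. The introns with contigs had a median length of 4391 bases against 1671 for all spans with room. The share with contigs was 1.65% at 400 to 999 bases, 18.1% at 1000 to 1999 bases, 54.5% at 2000 to under 5000 bases and 88.8% at 20000 to 49999 bases. In the 562 spans of 50000 bases or more it was 69.2%. Each contig was counted only in its narrowest span, so a long span around a shorter well-read one can be left with 0. In Tmem164, for example, a span of 70483 bases held 0, and one of 69090 bases inside it held 52. The lower share in the longest class is therefore not a measure of contig-free introns.

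**Figure D2:**
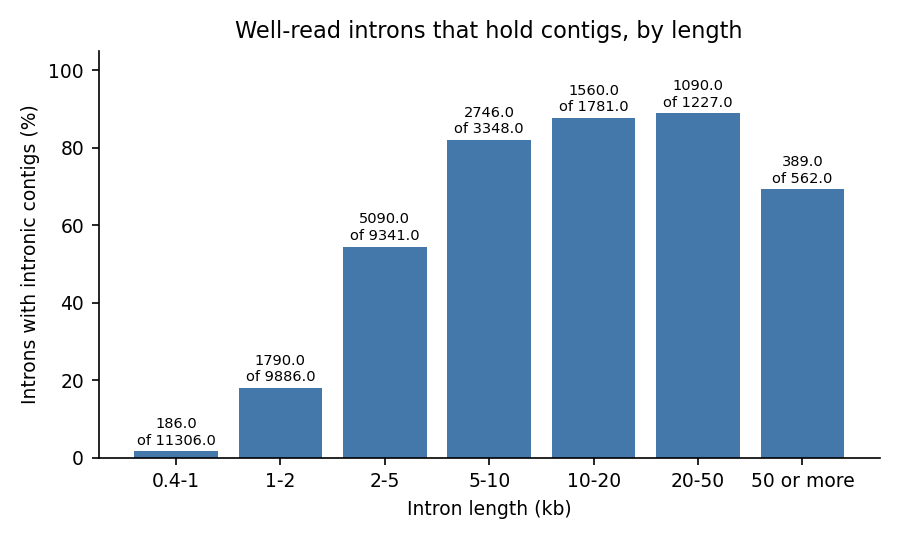
Share of well-read introns that held at least 1 intronic contig, by intron length in kb, with the counts above the bars. The share rises from 1.65% in the shortest class to 88.8% at 20 to 50 kb and is 69.2% in the longest. Each contig counts only for its narrowest span, which lowers the share of long spans that enclose shorter ones.

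Within the introns that held any, the contigs took up a median of 35.1% of the bases. In 3380 introns they covered over 50%, and in 133 over 80%. Contigs of 5000 bases or more were outside the rule, so these shares are lower limits for all contigs of the list. In 5108 introns there was 1 contig, and 1352 introns with at least 10 held 48.9% of all of them. First introns held contigs about as often as later ones of like length, in 55.3% and 55.3% at 2000 to under 5000 bases and in 93.2% and 95.2% at 20000 to 49999 bases.

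Along long introns more contig length lay on the 5′ side, apart from the outermost bins. Introns of at least 10000 bases were divided into 10 equal bins. The whole length of each contig was counted in the bin of its midpoint. So counted, the contigs came to 37.7% of the bases in bin 2 and 28.6% in bin 9. The outermost bins were lower, bin 1 at 24.98% and bin 10 at 18.9%. The distance rule removes bases from them, and a long contig that starts near an end can have its midpoint further in. The median level fell from 0.341 in bin 2 to 0.307 in bin 9. In 1342 introns with at least 10 contigs and some on each side of the midpoint, the median level was higher on the 5′ side in 849, higher on the 3′ side in 487 and equal in 6. The difference was small, with medians of 0.341 and 0.309 and a median log2 ratio of 0.16. In introns of 2000 to under 10000 bases the share counted in this way was highest near the middle, 57.5% in bin 6. There a contig can be longer than a bin, and long contigs can have their midpoint only near the middle. That peak is therefore not a measure of where the covered bases lie.

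**Figure D3:**
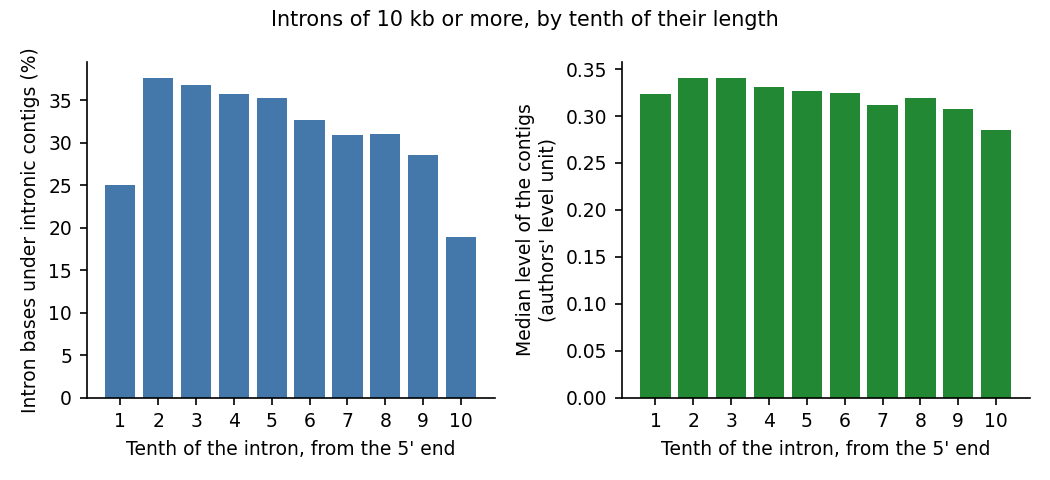
Introns of 10 kb or more, divided into 10 equal bins from the 5′ end. Left: summed length of the intronic contigs as a percentage of the bin's bases, each contig counted whole in the bin of its midpoint. Right: median level of the contigs. Both are lower in bin 9 (28.6% and 0.307) than in bin 2 (37.7% and 0.341), and bins 1 and 10 have the lowest percentages.

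The 10 contigs of highest level stood above the mean of their exon contigs, and several lay in introns that also list a pseudogene. The highest by far lay in an intron of Cd44, the hyaluronan receptor of activated and early T cells, at chr2:102669422-102669667 on the minus strand. It was 246 bases long, lay 654 bases from the 3′ end of an intron of 24404 bases with 181 junction reads, and stood at 842 against 8.94 for the exons. The gene itself measured 14.94 and 15.20 TPM in replicates 1 and 2.

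Some of the others lay in introns where the annotation lists a pseudogene on the same strand. Among these were the contigs in Pam (an enzyme that amidates peptides, level 49.6, pseudogene Gm3531), Sumf1 (level 26.7, Rpl36-ps12) and Lpp (level 26.2, Morf4l1-ps1). The one in Kpna4, a nuclear import receptor, had a level of 25.3 and filled 683 of the 1532 bases of an intron that lists the small Cajal body RNA Gm22009. A further 3 lay in spans that matched no annotated intron, at chr17:35472798-35473409 (level 41.5), chr13:21905900-21906269 (level 39.9) and chr13:23665418-23666120 (level 39.1). These spans were 59921, 5276 and 146806 bases long, and whether they are true introns was not tested. The 3 contigs may therefore not be intronic. The longest span with contigs reached 1137652 bases. Of 418 contigs in spans over 200 kb, 300 were in unmatched ones. At a level of 5 or more, 21 contigs were in unmatched spans and 48 in matched ones. Of the named hosts, Sumf1 measured 16.64 and 14.05 TPM, Kpna4 17.14 and 16.99 TPM, and Lpp 4.73 and 4.66 TPM in the 2 libraries.

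Over all contigs such contents were rare. Of 52962 contigs in matched introns, 2.40% lay in an intron that lists a pseudogene and 3.50% in one that lists a small RNA gene. Among the 48 at a level of 5 or more these shares were 16.7% and 12.5%, but 4 of the 6 contigs behind the 12.5% lay in the 1 Arpp21 intron that lists miR-128-2. Introns with an exon of the host gene inside them held 33.0% of all contigs and 52.1% of those 48, and introns with nothing listed held 59.6% and 29.2%. At a level of 1 or more, over 3509 contigs, the shares were 2.14% for pseudogenes, 3.33% for small RNA genes and 56.4% for nothing listed, close to those over all contigs.

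The longest contigs approached the upper limit of the rule without high levels. They lay in introns of Ranbp3 (a nuclear export cofactor, 4993 bases, level 0.977), Tcf20 (a transcriptional coregulator, 4981 bases, 0.835), Hdgf (a growth factor, 4978 bases, 0.760), Lsp1 (a leukocyte actin-binding protein, 4959 bases, 1.64) and Cerk (ceramide kinase, 4956 bases, 0.902). Relative to their exons they ranged from 4.42% in Cerk to 58.9% in Ranbp3.

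The introns with most contigs were very long. A span at chr1:108439976-108608881 that matched no annotated intron, 168906 bases long, held 119. Next came an intron of Bcas3 with 118, an intron of Fto, an RNA demethylase, with 96, the first intron of Tox with 94 and the first intron of Slco3a1 with 90. Tox, a high mobility group protein needed for CD4 lineage development, had 94 contigs over 66.0% of an intron of 147963 bases, at a median level of 0.432. By gene, Slc9a9, a sodium and proton exchanger, led with 336 contigs in 11 introns, followed by Arid1b with 234, Foxp1 with 189 and Dock2, an activator of Rac in lymphocytes, with 182.

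The introns covered most fully included one of Ikaros. Of 5 introns of at least 2000 bases with the largest covered share, that of Atp13a3, a polyamine transporter, was covered to 93.6% by 2 contigs, that of the sialyltransferase St3gal1 to 92.7% by 8, that of the kinase Prkci to 91.7% by 2 and that of Cmip to 91.7% by 14. The Ikzf1 intron, 7527 bases long with 1822 junction reads, was covered to 91.2% by 4 contigs at a median level of 1.80. Atp13a3 measured 61.94 and 32.13 TPM and Ikzf1 771.32 and 507.53 TPM, so the libraries stood apart for both hosts, with replicate 1 higher.

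The share of genes with such contigs differed between the gene lists, as did their length of well-read intron. Among 7814 genes with a matched well-read span of at least 400 bases, 5130 (65.7%) held at least 1 contig. Of 16 thymocyte transcription factors 14 did, of 17 receptor and signalling genes 10, of 23 splicing kinases and regulators 13, and of 7 genes of rearrangement and the double positive stage 2 (Rag1, the recombinase gene, had no such span). Of 12 snoRNA host genes with such a span 0 did, and these had a median of 1.01 kb of well-read intron. The shares of the receptor list (58.8%) and the splicing list (56.5%) were near the 65.7% over all genes. Over all genes with 20 to 50 kb of well-read intron the share with contigs was 92.6 to 99.1% across 5 expression classes, and under 5 kb it was 10.8% in the highest class, so the counts of the transcription factors and snoRNA hosts single out neither list. The share of the rearrangement list was lower, at 28.6%, against 66.0% of genes with 5 to 20 kb in the highest class. Its 7 genes had from 2.50 to 142.9 kb of well-read intron, and the difference was not tested. All counts by gene are of matched introns. The same median was 46.6 kb for the transcription factors, 17.6 kb for the receptor and signalling genes, 13.2 kb for the rearrangement list, 5.98 kb for the splicing list and 8.42 kb over all 7814 genes.

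**Figure D4:**
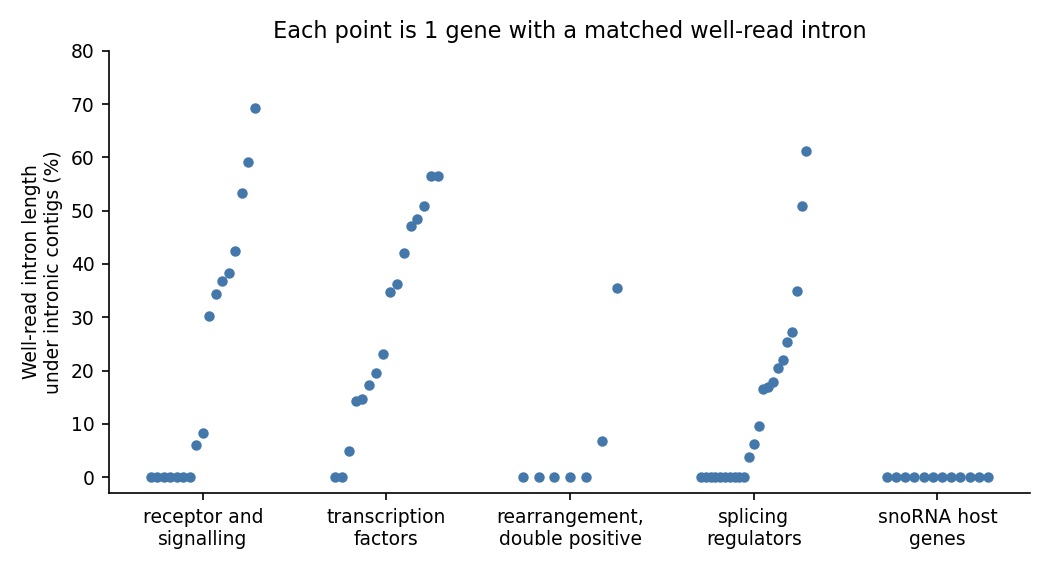
Share of the well-read intron length under intronic contigs for each gene of the 5 lists, 1 point per gene, genes without a contig at 0%. The snoRNA host genes all stand at 0%, and Themis at 69.3% is the highest of the others.

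Among the transcription factors, levels differed widely between genes. Satb1, which organises chromatin in thymocytes, had 7 contigs in 4 introns, the highest at 9.43 in an intron of 25042 bases whose exons stood at 42.9. Bcl11b, needed for commitment to the T lineage, also had 7, with a median level of 2.85 and a highest of 7.71. Tcf12, an E protein, had 178 with a median of 0.351, and Runx1 had 88 over 56.5% of its well-read intron length with a median of 0.720. Lef1, a partner of beta-catenin, had 35 with a median of 0.755, and a single contig in its intron of 1597 bases reached 4.13.

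Other factors of the list also held contigs. Ets1 had 10 contigs in its first intron (median level 1.61), Ikzf1 13 (0.816), Myb 6 (0.678), Gata3 6 (0.394), Runx3 13 (0.293) and Cbfb 24 (0.257). Tcf3 had 1 and Notch1 had 2. Tcf7, which encodes Tcf1, had none, although it measured 2746.54 and 2298.59 TPM and had 27.8 kb of well-read intron. A high gene level did not go with contigs in each case.

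Among the signalling genes, those with most well-read intron held most contigs. Themis, which tunes receptor signals during positive selection, had 77 contigs over 69.3% of 134 kb, and its intron of 80557 bases held 43 with a median level of 0.750 and a highest of 4.52. Fyn, a Src family kinase, had 121 over 59.2% of 190 kb (median level 0.387). Ptprc, which encodes CD45, had 47, of which 36 covered 84.1% of an intron of 48688 bases with 6834 junction reads. Cd247, the zeta chain of the receptor, had 18 in its first intron with a median level of 1.5.

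Several other signalling genes held 10 or fewer. Lck, the kinase bound to CD4 and CD8, had 1 contig at 2.00 and Zap70, which Lck activates, 1 at 1.52. Cd3g had 1 of 2972 bases at 2.58, and Ptcra, the pre-receptor alpha chain, had 4 at a median of 0.742. Cd6, a receptor of mature and immature T cells, had 10 at a median level of 0.556. None that met the rule lay in Cd3e, Cd3d, Trac, Trbc1, Trbc2, Lat or Cd5. Trbc1 and Trbc2, for the constant parts of the receptor's beta chain, each had 1 well-read span, of 0.521 and 0.505 kb, and measured 3419.87 and 3682.63 TPM (Trbc1) and 2908.05 and 3110.98 TPM (Trbc2).

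In the rearrangement list Arpp21 stood apart. It held 27 contigs in 7 introns, with a median level of 1.71 and a median of 21.2% of the exon contigs, while the gene measured 540.73 and 485.83 TPM (513 ± 38.8, SD, n = 2). That share depended on the intron. In one of 108 junction reads, with exons at 4.09, 9 contigs stood at 7.32 to 55.6% of them. In one of 8354 reads, with exons at 39.8, 3 stood at 2.69 to 4.98%. In the one of 7165 reads, 10 stood at 1.54 to 52.6%. In the intron of 51873 bases that lists the miR-128-2 hairpin, the levels of the 10 contigs ranged from 0.381 to 13.0 against 24.7 for the exons. Of these 10, 7 began between 3999 and 24515 bases from the 5′ end, and the one at 13.0 was 2966 bases long and began 10904 bases from it. The other member of the list with contigs was Cd4, with 2 in its first intron at levels up to 1.32. Rag2, Dntt, Cd8a, Cd8b1 and Ccr9 had none that met the rule, although Dntt, the terminal transferase, had 28.2 kb of well-read intron and 307.64 and 284.16 TPM.

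**Figure D5:**
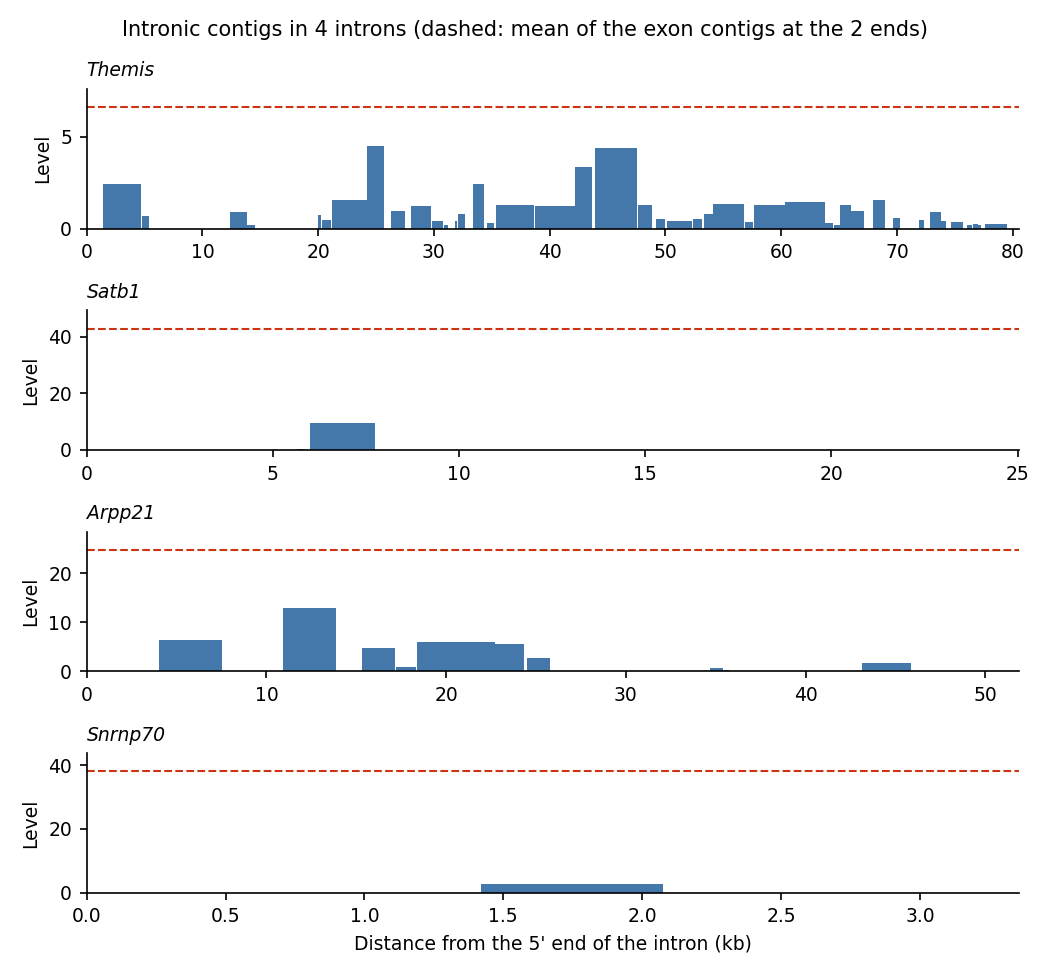
Intronic contigs along 4 introns, the ones with the highest contig of each list that had any (bar width: contig length; height: level; dashed line: mean level of the exon contigs at the 2 ends). The Themis bars lie along nearly the whole intron, with a highest level of 4.52, while 7 of the 10 Arpp21 bars begin between 3999 and 24515 bases, and no bar reaches its dashed line.

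The splicing list, of genes known for poorly spliced introns, held 83 contigs in 13 of its 23 genes. Ogt, which adds N-acetylglucosamine to proteins and is known for a detained intron, had 21 contigs at a median level of 0.324. Luc7l2 had 15 over 61.3% of its well-read intron length, and Luc7l3 12 over 50.9%. Tra2a had 2 at levels up to 2.60, a median of 44.9% of the exons, and Srsf4 8 at a median of 28.6% of the exons. These 2 were the highest of the 13 genes, whose medians went down to 0.80% in Srsf11. Ogt stood at 1.28%, against 6.64% over all contigs. Clk1, Ddx5, Hnrnph1 and Srsf1, Srsf2, Srsf3, Srsf5, Srsf6, Srsf7 and Srsf10 had none that met the rule. Contigs that run into an exon are outside it. Snrnp70, a protein of the U1 particle, had 1 at 2.81 in an intron of 3357 bases.

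Introns that the annotation keeps whole in a transcript of the retained intron type were short and seldom held contigs that met the rule. The rule leaves out any contig that runs into an exon, as one from an intron kept whole could do. The shares below therefore do not measure how often these introns were kept. Of 1080 such well-read introns, 87 held at least 1. At 1000 to 1999 bases the count was 35 of 324 (10.8%), against 1620 of 8510 (19.0%) for introns of that length with nothing listed. At 2000 to under 5000 bases it was 46 of 118 (39.0%) against 4334 of 7538 (57.5%). The deposited transcript tables list 50 such transcripts that keep a contig-holding intron, with median levels of 0.70 and 0.64 TPM in replicates 1 and 2, and 16 (32.0%) reached 1 TPM in both. Another 562 keep only introns without contigs, with higher medians of 3.13 and 3.15 TPM, and 422 of them (75.1%) reached 1 TPM in both. An intron under a contig that runs from exon to exon can count here as one without contigs. Whether contigs go with retention was therefore not tested by these levels.

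The highest of these transcripts was H2-Q7-206 of the class I gene H2-Q7, at 63.25 and 84.68 TPM. It was chosen here after its values were seen. It made up 18.0% and 17.1% of the gene's TPM, and the contig in the intron it keeps stood at 8.10. H2-Q7 belongs to a family of near-identical genes, so its reads may be shared with its copies and its values are uncertain.

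Introns that list a small RNA gene held contigs about as often as other introns of their length. At 1000 to 1999 bases 15 of 71 (21.1%) did, against 19.0% of those with nothing listed, and at 2000 to under 5000 bases 35 of 70 against 57.5%. Of 186 well-read introns with a microRNA gene, 85 (45.7%) held contigs, with a median length of 13070 bases against 2722 for all 186. Of 103 with a snoRNA gene (median length 1431 bases) 39 (37.9%) did, and of 11 with a small Cajal body RNA gene (3062 bases) 8 (72.7%). Over all spans with room, of median length 1671 bases, 12851 of 37451 did. These shares by type are not matched for length. At 400 to 999 bases 0 of 82 introns that listed a small RNA held a contig, against 172 of 9793 (1.76%) with nothing listed. The RefSeq table matched 56 of the 87 microRNA genes in contig-holding introns.

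The host genes were of middling level. Their median was 31.1 TPM in replicate 1 and 28.7 TPM in replicate 2, and that of their mean was 30.1 TPM against 33.8 TPM for genes with a well-read span and no contig. The total of expected counts was 49301763 in replicate 1 and 63058697 in replicate 2. On the scale of log2(TPM + 0.1), over 5117 host genes of at least 1 TPM on average, replicate 2 less replicate 1 had a median of -0.10 (interquartile range -0.26 to 0.05), against -0.04 over 14360 genes of that level. With 1 library on each side this ratio has no replicate check.

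Across 5118 host genes, the number of contigs went with the length of well-read intron (Spearman's rho 0.84), whereas the covered share went little with the gene's TPM (rho 0.10). These correlations are across genes, which share libraries and depth, and are given without a p. In genes with over 50 kb of well-read intron, the median covered share was 13.5% in the lowest expression class (2.76 to 11.7 TPM) and 42.3% in the fourth of 5 classes (42.3 to 86.9 TPM). In genes with 5 to 20 kb it went the other way, from 17.9% in the lowest class to 11.8% in the highest, and under 5 kb the share of genes with contigs was 31.0% in the lowest class and 10.8% in the highest.

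The tissue label was met by its markers in both libraries. Of 8 thymocyte markers 8, and of 6 thymic epithelial markers 6, reached 1 TPM in both. Markers of neighbouring tissue were present as well: blood 2 of 2 (summed level 2459 and 3150 TPM), fat 3 of 3 (1209 and 852 TPM), B cells 2 of 2 (44.9 and 38.4 TPM) and parathyroid 1 of 2 (2.39 and 6.02 TPM). Of the muscle markers 1 of 2 reached 1 TPM in both, and they summed to 11.5 TPM in replicate 1 and 172.9 TPM in replicate 2. Their part in the intronic contigs was not tested, and in bulk tissue fewer cells of a type and less RNA per cell cannot be told apart.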

How the data were processed

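Contigs and splice junctions were taken from the series-level lists on mm9, which the authors deposited with no header and no value per library. Their caller is not given in the sources used here. From the values, column 7 of the deposited contig list is a signal (coverage over length and a constant, 1st to 99th percentile of that constant 23.2 to 23.4), column 9 a coverage sum, column 8 a score read as reproducibility, and column 7 of the deposited junction list a read count. The gene and transcript tables hold TPM and expected counts that the authors made per library on mm10 with annotation M4, per the text files deposited with them. The lists cover the 2 libraries together, so no test was run, and precision is that of the pooled depth. The shallowest contig held the coverage of 10.6 reads.

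The host intron was the narrowest same-strand span of at least 100 reads. Neighbouring junctions of at least 10 reads, with exons of at most 10000 bases, gave the lengths for naming by GENCODE M21, and symbols came from the gene name table. This naming rests on lengths shared between mm9 and GRCm38 and not on positions. The functions for the same-strand host, the distance to junction ends of either strand and the antisense overlap were tested on 2400 simulated contigs, with 0 wrong. Python 3.11.15, numpy 2.4.6, pandas 2.3.3 and scipy 1.17.1 were used.

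The contigs, gene lists and alternatives were chosen with earlier results of these data known. Named were the 10 highest and 5 longest contigs, the 5 introns with most contigs, the 5 introns of at least 2000 bases with the largest covered share, 3 contigs on each side of the level minimum, their hosts and 5 gene lists. The alternatives changed the read, distance, level, span and reproducibility limits, the TPM scale, the pseudocount, and left out each library. Some items that this rule names are not reported here.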

Additional observations from a re-analysis of the deposited data

How the results depend on the processing

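The limits on level and span reads moved both counts by over 1.5 times. The number of contigs moved from 56359 to 32952 with spans of at least 200 reads, to 85046 with no level minimum and to 24681 at the 75th percentile of the level. It stayed within 1.5 times under the other 7 settings. The number of introns, 12851, moved to 7331 with spans of at least 200 reads and to 8366 at the 75th percentile, and stayed within 1.5 times under the other 8. The share without an antisense overlap, 94.4%, left its interval with spans of at least 200 reads (94.1%), away from ends of at least 1 read (95.7%), with no level minimum (95.2%) and at the 75th percentile (93.1%). The median level relative to the exons, 6.64%, moved to 8.40% with spans of at least 50 reads, 5.22% with at least 200, 6.29% away from ends of at least 1 read, 4.42% with no level minimum and 11.4% at the 75th percentile. The reproducibility limit of 0.1 removed no contig. Keeping away from same-strand ends only, a setting chosen after seeing the data, gave 56442 contigs.

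The median host gene level, 30.1 TPM, was 28.7 TPM without replicate 1 and 31.1 TPM without replicate 2. As CPM made from the expected counts it was 52.6, a unit that is not scaled by gene length. The log2 ratio of the libraries was -0.09 with a pseudocount of 1 and -0.10 with no filter, and leaves no value without either library. No paired analysis was possible because there is 1 group. Pooled lists leave the spread of the contigs between libraries unknown.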
